A study of Mus musculus with 12 samples.

Results

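Collagens and laminins are the main structural proteins of the extracellular matrix. Their genes were followed here in dorsal root ganglia, the clusters of sensory neuron cell bodies beside the spinal cord, after injury of the sciatic nerve. The members are the 55 genes, of 23238 gene symbols in the count tables, whose symbols have the form of a collagen chain (Col, a number, a, a number) or of a laminin chain (Lam, a letter for alpha, beta or gamma, a number). They were divided by what their proteins build: 11 fibrillar collagen chains, 19 chains of the basement membrane, and 25 other collagen chains. The study sequenced the ganglia of lumbar levels L3 to L5 from C57BL/6 mice at postnatal week 8. Its 4 groups were females with sciatic nerve injury (Female SNI), females with sham surgery (Female sham), males with sciatic nerve injury (Male SNI) and males with sham surgery (Male sham), each with 3 libraries. No genetic change or drug is named for any group. The sources used here give neither the time from injury to collection nor the exact nerve lesion. The labels do not say that the 3 libraries of a group came from separate animals or pools, and the p-values therefore reflect variation among libraries that is possibly only technical.

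Every collagen is a trimer of chains that wind into a triple helix, and the helix requires a glycine in each triplet of residues. Fibrillar collagens form the rope-like fibrils of the connective tissue around and within nerves and ganglia. Type IV collagen and laminins form the 2 networks of the basement membrane, the thin sheet that surrounds blood vessels, Schwann cells and the satellite glia that wrap sensory neurons. Laminins are cross-shaped trimers of an alpha, a beta and a gamma chain, and cells bind them through integrins and dystroglycan.

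In the coding sequences, fibrillar chains and laminin chains each stood apart by glycine repeats, while type IV and other collagens overlapped. Stretches of 18 codons are printed for the called fibrillar gene Col5a3, the called non-fibrillar gene Col16a1, and 1 abundant chain each of fibrils, type IV network and laminin, from the GENCODE vM21 annotation of GRCm38, read 5′ to 3′ on the coding strand. Capitals mark the glycine codons (GGN) that recur once in each triplet of codons.
Col5a3 codons 478 to 495: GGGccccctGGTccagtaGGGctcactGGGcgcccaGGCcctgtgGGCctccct
Col16a1 codons 1006 to 1023: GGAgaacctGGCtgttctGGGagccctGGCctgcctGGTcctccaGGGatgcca
Col1a1 codons 168 to 185: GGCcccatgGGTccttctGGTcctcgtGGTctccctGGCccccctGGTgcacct
Col4a1 codons 218 to 235: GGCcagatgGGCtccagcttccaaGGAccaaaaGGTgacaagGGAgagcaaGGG
Lamb1 codons 918 to 935: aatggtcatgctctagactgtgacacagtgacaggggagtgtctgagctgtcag
Col5a3 and Col1a1 each kept the glycine repeat without a break over 337 and 338 triplets, and the longest unbroken run of the 11 fibrillar chains was 216 to 344 triplets with a median of 338. In Col4a1 the repeat is interrupted, as the wider gap before the capitals GGA shows. The longest run of the 6 type IV chains was 39 to 66 triplets, and each had 19 to 24 separate repeat stretches. Col16a1 resembled type IV in this respect, with 18 stretches and a longest run of 52 triplets, although it is no basement membrane chain of the grouping used here. The longest run of the 25 other collagens was 23 to 113 triplets, a range that encloses that of type IV. In the basement membrane chains Col15a1 and Col18a1 the longest run was 30 triplets each. The 11 laminin chains had no run of at least 5 glycine triplets.

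Total counts were 12476606 to 15520746 per library. Levels are given in CPM, counts scaled to library depth. A count of 0 in a library allowed a level of up to 0.193 to 0.240 CPM on unscaled totals (the limit of 3 counts covers counting error only). All levels below use totals scaled further between libraries (TMM), so this limit is approximate for them. The ganglia held neuronal RNA: all 10 genes listed as sensory neuron markers passed the count filter, and their summed level was 17570 to 25381 CPM. Several of the 10, such as Rbfox3 and Tubb3, are general neuronal genes. Within groups, pairs of libraries correlated at 0.910 to 0.974 on the log2 scale over the genes tested. Male SNI replicate 2 was in the pairs with the lowest values, and its deviations from its group moved with those of Female sham replicate 2, with a correlation of 0.425 across genes. Because of this, several values are also given without both. Of the 49 members tested, leaving out both turned the sign of 3 changes averaged over the sexes (Lama1, Lama3 and Lamb2, each near 0) and moved 4 others by over 1.5 times (Lamb3, Col4a6, Col6a6 and Col10a1, all below 5 CPM).

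Of the 55 members, 49 passed the count filter. Col5a3 and Col16a1 rose after injury, by 1.51-fold and 1.41-fold, and none fell. By the quasi-likelihood test of edgeR over all 15036 genes tested, 6.52% were called, 3.78% as higher and 2.73% as lower, so the 2 called among 49 stand near the share of all genes called as higher. A further reading of the same fit counted genes with an unadjusted p under 0.05: these were 7 of 49 members, 1 of them below 0, against 18.4% of all genes. Without Male SNI replicate 2 and Female sham replicate 2, 3 members were called as higher and none as lower, among 12.1% of all genes. The median log2 change of the 49 was 0.09, against 0.003 for all genes tested, and 31 of 49 lay above 0, against 50.5% of all genes. Where expression was at least 5 CPM on average, 28 members had changes between -0.33 and 0.59, with standard errors no larger than 0.35. Most of the collagen and laminin genes thus had no called change in either direction at a precision that varied from gene to gene. The counts were made in whole ganglia, in which fewer cells of a type and less RNA per cell cannot be told apart.

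**Figure D1:**
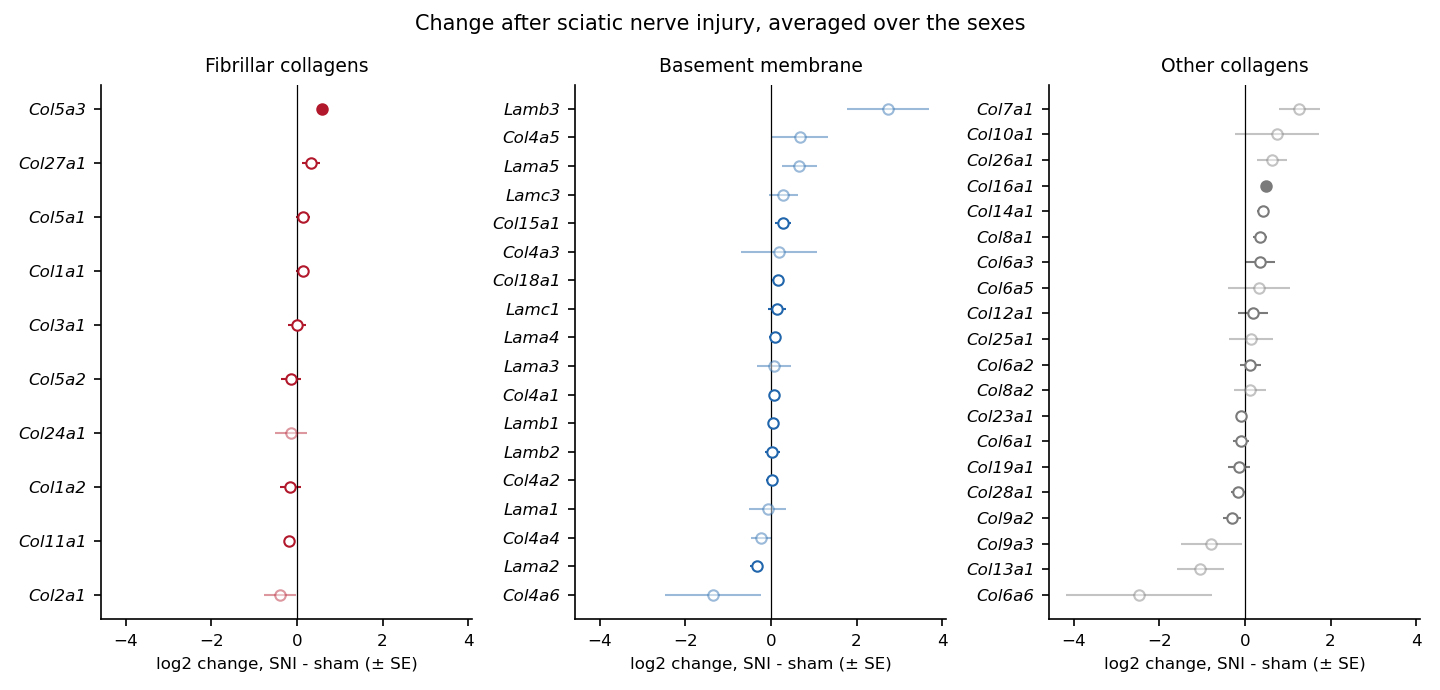
Log2 change after sciatic nerve injury, averaged over the sexes, for 48 of the 49 members tested, with bars of ± 1 standard error; the fibrillar, basement membrane and other collagen chains are set apart. Filled points are the called genes, Col5a3 at 0.59 and Col16a1 at 0.50, and pale points are genes below 5 CPM on average, which have the widest bars.

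Col5a3 encodes the alpha 3 chain of type V collagen, a minor fibrillar collagen that co-assembles with type I collagen and limits fibril diameter. The gene (Entrez 53867) lies on chromosome 9 at 20770050 to 20815117 in the RefSeq annotation of GRCm38.p6, the source of all gene positions here. Its level was 47.9, 62.2 and 63.6 CPM in the Female sham libraries and 92.1, 76.8 and 94.5 CPM in the Female SNI libraries. In males it was 59.6, 52.5 and 59.2 CPM after sham surgery and 77.7, 112 and 67.4 CPM after injury. All 6 injured libraries lay above all 6 sham libraries; 2 of the 49 members and 2.79% of all genes tested showed this separation. The log2 change averaged over the sexes was 0.59 ± 0.13 (SE; 95% interval 0.32 to 0.87; edgeR adjusted p = 0.0129). It was 0.60 ± 0.18 in females and 0.58 ± 0.18 in males, each with 3 libraries against 3. The Male SNI replicate 2 value of 112 CPM was the highest, and without it and Female sham replicate 2 the change was 0.51 (edgeR adjusted p = 0.00162). The call held in all 21 alternative analyses, with log2 changes of 0.48 to 0.66 and adjusted p-values of 0.000741 to 0.0413.

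Col16a1 encodes the single chain of type XVI collagen, a fibril-associated collagen with interrupted triple helices. The gene (Entrez 107581) lies on chromosome 4 at 130047817 to 130099277. Its level was 42.0, 42.7 and 45.2 CPM in Female sham and 48.3, 60.9 and 61.4 CPM in Female SNI. Males had 38.3, 35.8 and 44.8 CPM after sham surgery and 50.4, 77.5 and 53.3 CPM after injury. Here too, every injured library was above every sham library, with the smallest gap between 45.2 and 48.3 CPM in females. The log2 change was 0.50 ± 0.12 (SE; 95% interval 0.23 to 0.77; edgeR adjusted p = 0.0264). This call was less firm than that of Col5a3. Leaving out 1 library ended it in 7 of 12 cases, namely replicates 2 and 3 of Female SNI, all 3 replicates of Female sham, and replicates 1 and 2 of Male sham, with log2 changes of 0.46 to 0.51 and edgeR adjusted p-values of 0.0567 to 0.0763. Without Male SNI replicate 2 and Female sham replicate 2 together, the change was 0.39 (edgeR adjusted p = 0.0156), and over all 21 alternatives adjusted p-values were 0.00436 to 0.0763.

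The 5′ flanks of the 2 called genes are printed because these members moved together. Each is the part of the RefSeq promoter window (GRCm38.p6) that lies outside the gene's whole RefSeq span, read 5′ to 3′ on the gene's strand. Capitals mark CCAAT (the CCAAT box) and GGGCGG (the GC box, the core of sites bound by Sp-family factors) on either strand.
Col5a3, minus strand, chr9:20815118-20815317: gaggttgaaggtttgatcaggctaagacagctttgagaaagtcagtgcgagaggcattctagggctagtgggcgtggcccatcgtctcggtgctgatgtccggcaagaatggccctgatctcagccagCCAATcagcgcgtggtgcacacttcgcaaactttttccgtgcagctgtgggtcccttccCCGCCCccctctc
Col16a1, plus strand, chr4:130047590-130047816: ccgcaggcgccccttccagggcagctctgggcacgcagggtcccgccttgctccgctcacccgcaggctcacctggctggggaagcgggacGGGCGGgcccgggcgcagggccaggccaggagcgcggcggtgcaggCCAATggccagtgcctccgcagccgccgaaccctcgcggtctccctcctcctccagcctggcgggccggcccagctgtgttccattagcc
Each flank holds 1 CCAAT box, which begins 122 bases before the start site given for Col5a3 and 113 bases before that for Col16a1, and each holds at least 1 GC box. These motifs are common. In 32851 windows of 250 bases before to 50 after a start, CCAAT was present in 37.4% and the GC box in 35.7%. The 44 windows of the 40 members in the table had CCAAT in 14 (31.8%) and the GC box in 26 (59.1%). The AP-1 site TGANTCA, the sequence bound by Fos, Jun and Atf3-type dimers, was found on either strand in 1 of the 44 windows, that of Col6a1, against 7.81% of all windows. The TATA box TATAAA was in 5 of the 44 windows, against 13.6% of all. In the 2 printed flanks no motif overlapped another, and a match is a description of the letters only.

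Among fibrillar collagens, 1 of the 10 tested genes rose and none fell, and the median log2 change was -0.06 with 5 of 10 above 0. The chains of types I and III, which make the bulk of interstitial fibrils, had no called change. Col1a2, the alpha 2 chain of type I collagen (chromosome 6, 4505618 to 4541543), measured 968, 537 and 1185 CPM in Female sham and 701, 808 and 1187 CPM in Female SNI. It was at 1028, 1088 and 939.7 CPM in Male sham and 1213, 376 and 857 CPM in Male SNI. The groups overlapped, and the lowest value of each surgery belonged to Female sham replicate 2 and Male SNI replicate 2. The log2 change was -0.16 ± 0.25 (SE; 95% interval -0.69 to 0.37; edgeR adjusted p = 0.820), and without those 2 libraries it was -0.11.

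Col1a1, the alpha 1 chain of type I collagen (chromosome 11, 94936224 to 94953042), measured 141, 141 and 233 CPM in Female sham and 162, 196 and 256 CPM in Female SNI. In males it was at 188, 207 and 188 CPM after sham surgery and 251, 164 and 173 CPM after injury. Sham and injured libraries overlapped in both sexes, and the log2 change was 0.13 ± 0.16 (SE; edgeR adjusted p = 0.747). Col3a1, the single chain of type III collagen (chromosome 1, 45311538 to 45349706), measured 135, 97.2 and 173 CPM in Female sham and 122, 188 and 213 CPM in Female SNI. It was at 176, 175 and 152 CPM in Male sham and 194, 77.1 and 122 CPM in Male SNI. Its log2 change of 0.004 ± 0.21 (95% interval -0.44 to 0.45) took either sign as single libraries were left out, from -0.20 to 0.14.

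The partner chains of Col5a3 did not share its call. Col5a1, a chain of the common type V trimer, had a log2 change of 0.15 ± 0.16, and Col5a2, its partner, had -0.13 ± 0.24 (edgeR adjusted p = 0.722 and 0.849). Col11a1, a chain of the type XI fibrils of cartilage that also joins type V trimers, had the lowest change of the fibrillar genes above 5 CPM. It was at 20.4 to 28.2 CPM in Female SNI and 25.9 to 31.3 CPM in Female sham, and at 21.7 to 29.7 CPM in Male SNI and 24.8 to 31.9 CPM in Male sham. The ranges overlapped, and the log2 change was -0.18 ± 0.13 (edgeR adjusted p = 0.534). Col27a1, a fibrillar collagen of developing cartilage, had 0.32 ± 0.21, and the low-level Col24a1 and Col2a1, the latter the main chain of cartilage fibrils, had -0.13 ± 0.37 and -0.39 ± 0.37. Col11a2 did not reach the filter, with 39 counts over the 12 libraries. Markers of cartilage and bone summed to 31.0 to 59.0 CPM, with 2 of the 9 genes at 0 in every library. Of the 5 tested, 1 was called as lower by edgeR, DESeq2 and limma, Hapln1, a link protein of cartilage matrix, which fell by 0.86 on the log2 scale (edgeR adjusted p = 0.00957). The list's sum was 35.6 to 41.5 CPM in Female sham, 35.2 to 41.7 CPM in Female SNI, 54.4 to 59.0 CPM in Male sham and 31.0 to 45.3 CPM in Male SNI. Its part in the values of the cartilage collagens was not tested.

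**Figure D2:**
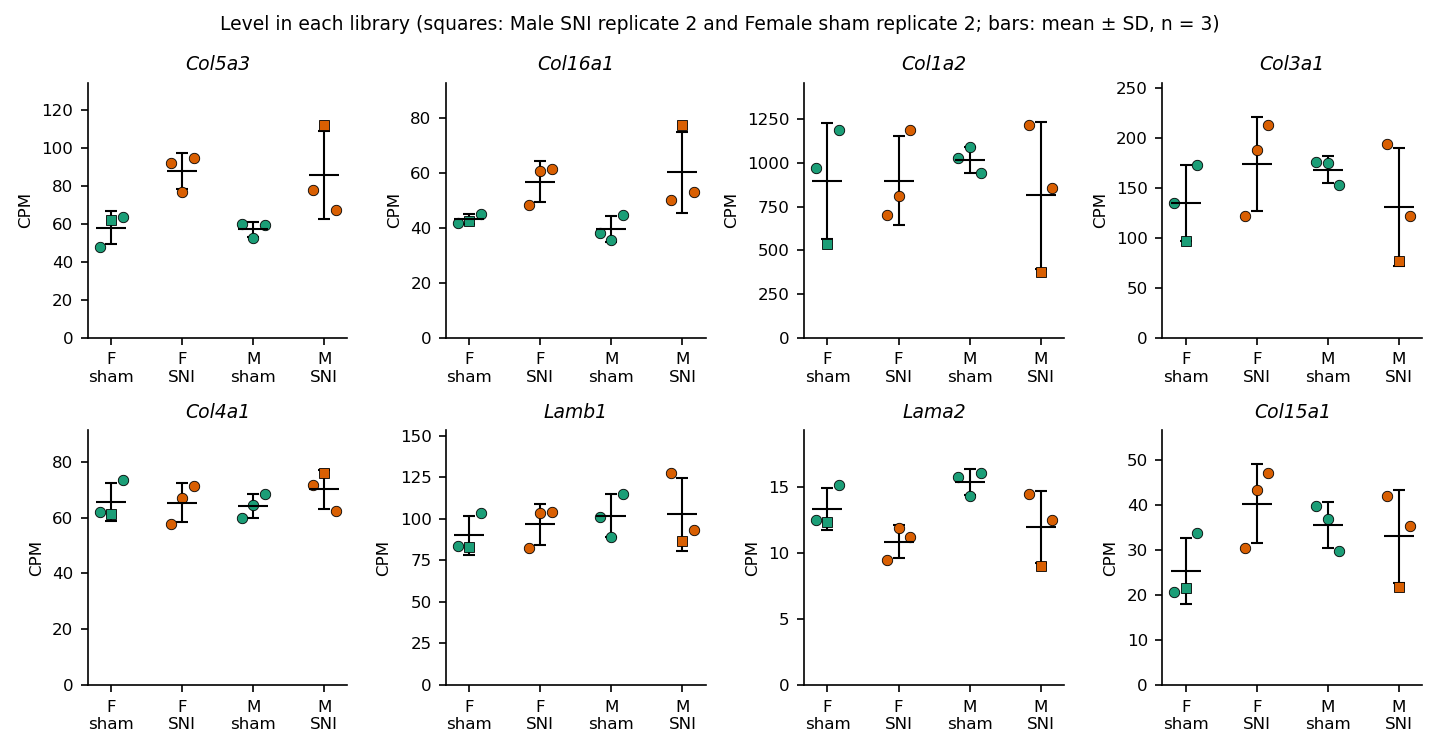
Level in each of the 12 libraries (CPM, linear axis from 0) of 8 members, by group, with the mean ± SD of each group of 3; squares are Female sham replicate 2 and Male SNI replicate 2. Col5a3 and Col16a1 show no overlap of sham and injured libraries, and Col1a2 and Col3a1 have their lowest points in the squares.

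No basement membrane gene was called among the 19 tested by edgeR, DESeq2 or limma (6.52%, 9.22% and 13.4% of all genes), while 2 (Lama2 and Lamb3) had an unadjusted p under 0.05 by edgeR. The median log2 change was 0.08, with 14 of 19 above 0. The chains that form the type IV network of nearly all basement membranes, Col4a1 and Col4a2, varied little. Col4a1 (chromosome 8, 11198423 to 11312889) measured 61.9, 61.2 and 73.6 CPM in Female sham and 57.8, 66.9 and 71.3 CPM in Female SNI. Males had 59.7, 64.5 and 68.3 CPM after sham surgery and 71.7, 76.1 and 62.5 CPM after injury. The libraries of all groups overlapped. The log2 change of 0.06 ± 0.10 had a 95% interval of -0.14 to 0.27, the narrowest of the members above 5 CPM, and that of Col4a2 was 0.03 ± 0.14.

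Col4a1 and Col4a2 are arranged head to head, with RefSeq starts 21 bases apart on opposite strands at 11312826 and 11312805 of chromosome 8, and their exons overlap by 22 bases. The ratio of their counts was 1.83 to 2.46 over the 12 libraries, a coefficient of variation of 9.55%, the lowest of the 8 pairs of chains compared. Of the chains with restricted tissue use, Col4a4 was at 2.93 to 6.37 CPM with a log2 change of -0.23 ± 0.23. Col4a3, Col4a5 and Col4a6 had 98, 154 and 60 counts in all, and their changes had standard errors of 0.66 to 1.12.

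Among laminins none of 11 was called by edgeR (6.52% of all genes), and 2 had an unadjusted p under 0.05 (18.4% of all genes). Their median log2 change was 0.08, and 8 of 11 were above 0, against 50.5% of all genes. Lamb1, the beta 1 chain found in most laminins (chromosome 12, 31265146 to 31329644), measured 83.6, 82.9 and 104 CPM in Female sham and 82.3, 103 and 104 CPM in Female SNI. In males it was at 101, 89.3 and 115 CPM after sham surgery and 128, 86.9 and 93.6 CPM after injury. Its log2 change was 0.06 ± 0.12 (95% interval -0.20 to 0.31). Lamb2, the beta 2 chain of vascular and synaptic laminins (chromosome 9, 108479847 to 108490530), measured 36.9, 54.0 and 62.8 CPM in Female sham and 41.6, 47.9 and 49.0 CPM in Female SNI. Male values were 36.5, 47.3 and 36.6 CPM after sham surgery and 50.2, 61.2 and 29.0 CPM after injury. Its log2 change was 0.04 ± 0.18, with wide overlap in both sexes, and -0.06 without Male SNI replicate 2 and Female sham replicate 2.

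Lama2, the alpha 2 chain of the laminin in the Schwann cell basement membrane (chromosome 10, 26981285 to 27617191), had the lowest change of the 28 members above 5 CPM. It measured 12.5, 12.4 and 15.2 CPM in Female sham and 9.50, 11.9 and 11.2 CPM in Female SNI. In males it was at 15.8, 14.3 and 16.1 CPM after sham surgery and 14.5, 9.07 and 12.5 CPM after injury. Female libraries did not overlap, and in males the injured value of 14.5 CPM lay within the sham range. The log2 change was -0.33 ± 0.15 (95% interval -0.65 to -0.01; edgeR unadjusted p = 0.0461, adjusted p = 0.259), and it was -0.26 without Male SNI replicate 2 and Female sham replicate 2. An antisense gene overlaps 154 bases of its exons, and the sources used here do not say whether counting used strand. Markers of Schwann cells showed no called gene among 8 by edgeR, DESeq2 or limma (0 with an unadjusted p under 0.05 by edgeR), and their sum was 3991 to 5745 CPM in Female sham, 4640 to 5981 CPM in Female SNI, 5397 to 6274 CPM in Male sham and 4281 to 5916 CPM in Male SNI. Their part in the value of Lama2 was not tested.

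Lama4, the alpha 4 chain of endothelial and Schwann cell laminins, had a log2 change of 0.09 ± 0.14, and Lamc1, the gamma 1 chain shared by most laminins, had 0.14 ± 0.21. Lamb3, the beta 3 chain of the epithelial laminin, had the highest fitted change of the 49 tested, 2.73 ± 0.97 (edgeR unadjusted p = 0.0137, adjusted p = 0.127). It rested on 102 counts in all. Sham libraries were at 0 to 0.404 CPM with 4 of 6 at 0, and injured libraries were at 0.147 to 3.07 CPM, the highest being Male SNI replicate 2. Without that library and Female sham replicate 2, the change was 2.07 (edgeR unadjusted p = 0.0625, adjusted p = 0.240), and Col6a4, which passed the filter only then, was higher at 3.11. Lama3, an epithelial alpha chain, had a change of 0.08 ± 0.40, and those of Lama1, Lama5 and Lamc3 were -0.08 ± 0.44, 0.67 ± 0.40 and 0.29 ± 0.34.

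The 2 collagens of the basement membrane zone that carry endostatin-type ends had changes above 0 that were not called. Col15a1 (chromosome 4, 47207655 to 47313167) measured 20.6, 21.6 and 33.8 CPM in Female sham and 30.4, 43.3 and 47.2 CPM in Female SNI. It was at 39.7, 37.0 and 29.9 CPM in Male sham and 41.9, 21.8 and 35.3 CPM in Male SNI. The log2 change was 0.28 ± 0.18 (edgeR adjusted p = 0.476), from 0.67 in females and -0.11 in males. It was 0.35 without Male SNI replicate 2 and Female sham replicate 2 (edgeR adjusted p = 0.147), from 0.57 in females and 0.13 in males, so the sign in males turned. Col18a1 had 0.16 ± 0.14. Endothelial markers, which track the vessels where much of this matrix lies, had no called gene among 9 by edgeR, DESeq2 or limma (1 with an unadjusted p under 0.05 by edgeR) and a median log2 change of 0.12. Their part in the values of Col15a1 and Col18a1 was not tested.

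Of the 25 other collagens, 20 were tested, and Col16a1 was the only one called by edgeR. The median log2 change was 0.13, with 12 of 20 above 0. Col8a1, a short-chain collagen of vessel walls (chromosome 16, 57624256 to 57754737), measured 31.9, 20.5 and 37.95 CPM in Female sham and 34.5, 40.9 and 47.97 CPM in Female SNI. In males it was at 27.0, 28.02 and 24.8 CPM after sham surgery and 39.5, 24.4 and 31.1 CPM after injury. Its log2 change of 0.35 ± 0.16 did not pass (edgeR unadjusted p = 0.0490, adjusted p = 0.268), and the lowest libraries were again Female sham replicate 2 and Male SNI replicate 2. Col23a1, a transmembrane collagen (chromosome 11, 51289679 to 51583925), was at 26.5 to 33.0 CPM in Female sham, 22.2 to 33.7 CPM in Female SNI, 26.1 to 28.8 CPM in Male sham and 22.5 to 27.97 CPM in Male SNI. Its log2 change was -0.08 ± 0.13. Col9a2, a chain of the cartilage collagen type IX, had the lowest change of this group above 5 CPM, -0.30 ± 0.21, with 5.22 to 8.36 CPM after injury and 5.52 to 12.02 CPM after sham surgery.

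Col14a1, a fibril-associated collagen of dense connective tissue, is named after its values were seen, because its call depended on the analysis. It measured 15.8, 13.6 and 13.3 CPM in Female sham and 20.2, 20.9 and 19.4 CPM in Female SNI, with no overlap. In males it was at 15.97, 14.3 and 15.5 CPM after sham surgery and 25.4, 15.2 and 17.1 CPM after injury, and the 15.2 CPM of Male SNI replicate 2 fell inside the sham range. The log2 change was 0.42 ± 0.14 with an edgeR adjusted p of 0.112. It was 0.49 without Male SNI replicate 2 (edgeR adjusted p = 0.0246), 0.48 without that library and Female sham replicate 2 (edgeR adjusted p = 0.0320), and 0.54 with limma's sample weights (adjusted p = 0.00675). These analyses called 11.5%, 12.1% and 13.4% of all genes. The 21 alternatives gave adjusted p-values of 0.00675 to 0.246, and the count of called members was 3 in these 3 analyses.

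The type VI chains, which form beaded filaments around cells, had a median log2 change of 0.13 over the 5 tested. Col6a1, Col6a2 and Col6a3 had -0.09 ± 0.20, 0.13 ± 0.24 and 0.35 ± 0.35. The spread of Col6a3 came with 2 libraries: Female sham replicate 2 was at 4.39 CPM against 11.5 to 20.1 CPM in the other sham libraries, and Male SNI replicate 2 was at 3.84 CPM against 17.5 to 28.1 CPM in the other injured libraries. Col12a1, a fibril-associated collagen of tendon and fascia, had 0.19 ± 0.34, and Col28a1, known from the nodes of peripheral nerve and from glia, had -0.15 ± 0.18. Col19a1, a low-abundance fibril-associated collagen, had -0.13 ± 0.25. Among members below 5 CPM, Col7a1, the anchoring fibril collagen, had 1.27 ± 0.47 (edgeR unadjusted p = 0.0179, adjusted p = 0.14996) on 256 counts in all. Col26a1, Col8a2, Col25a1, Col9a3, Col13a1, Col6a5, Col10a1 and Col6a6 had changes of -2.47 to 0.75 that were not called, the lowest being Col6a6, with no count in 8 of 12 libraries. Both ends of that range turned on the 2 libraries named above: without them Col6a6 was at -0.05 and Col10a1 at 1.64. The -0.05 of Col6a6 was the average of 5.16 in females and -5.26 in males, on very few counts. Col20a1, Col9a1, Col17a1, Col6a4 and Col22a1 did not reach the filter and had 18 to 48 counts each in all.

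Some interstitial chains were low in both of the libraries that stand apart, and others were not. Relative to the mean of the other 5 libraries of the same surgery, Male SNI replicate 2 and Female sham replicate 2 had 0.18 and 0.26 times the Col6a3 level. The pairs of ratios were 0.28 and 0.41 for Col12a1, 0.36 and 0.55 for Col5a2, and 0.39 and 0.52 for Col1a2. In contrast, Col11a1 had 1.24 and 1.13, and Col19a1 had 1.64 and 0.88. Basement membrane chains varied: Lamc1 had 0.68 and 0.38 and Col15a1 had 0.55 and 0.67, while the ratios were 1.15 and 0.93 for Col4a1, 1.33 and 1.33 for Lama4, and 1.41 and 1.23 for Lamb2. The called genes were not low in either library, with ratios of 1.37 and 1.10 for Col5a3 and 1.41 and 1.04 for Col16a1. Of the 28 members above 5 CPM, 8 were the lowest of their surgery in both libraries (28.6%), 3 fibrillar, 2 of the basement membrane and 3 other collagens. Of the 10859 genes at that level, 21.8% were lowest in both, so this was widespread among all genes. In Male SNI replicate 2, 13 of the 28 were the lowest of the injured libraries (46.4%, against 35.1% of the 10859 genes). In the same library 7 of the 28 were the highest, against 4133 of the 10859 genes.

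**Figure D3:**
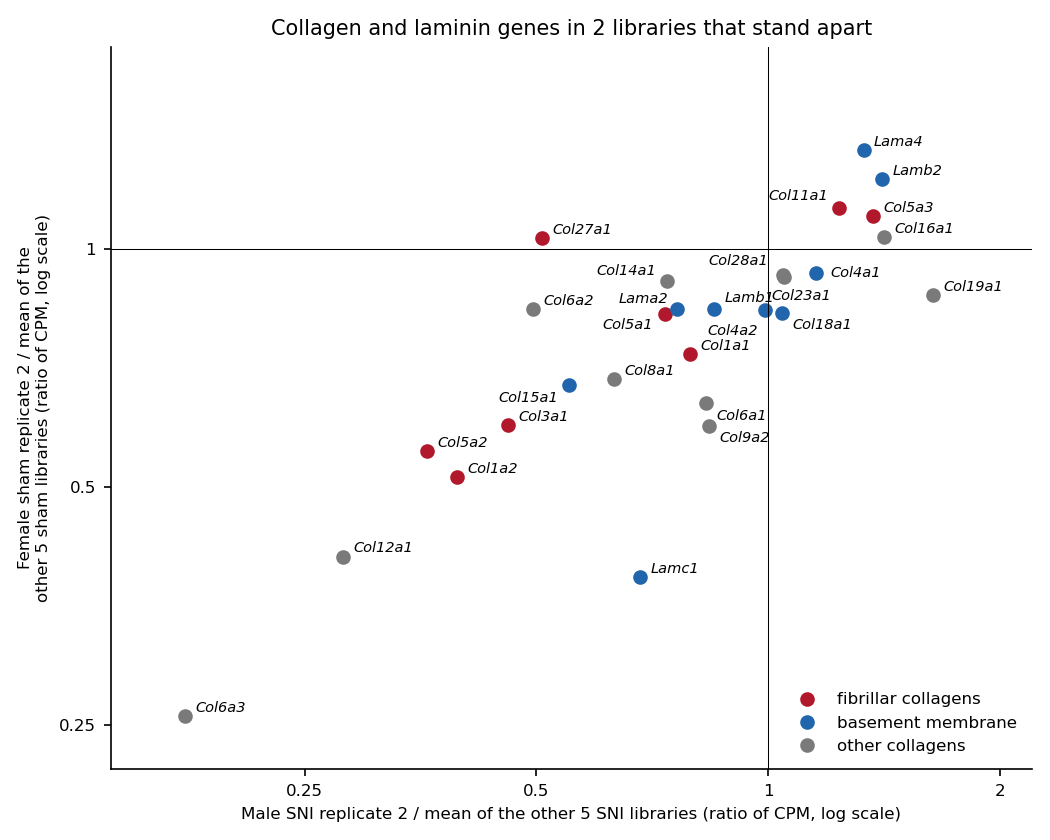
Each of the 28 members with a mean of at least 5 CPM, by its level in Male SNI replicate 2 over the mean of the other 5 SNI libraries (horizontal, log scale) and in Female sham replicate 2 over the mean of the other 5 sham libraries (vertical, log scale). Col6a3, Col12a1, Col5a2 and Col1a2 lie at the lower left, and Lama4, Lamb2, Col5a3 and Col16a1 lie at the upper right.

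Summed over each group, the fibrillar chains were at 1397, 923 and 1766 CPM in Female sham and 1164, 1376 and 1873 CPM in Female SNI. In males they were at 1553, 1626 and 1429 CPM after sham surgery and 1834, 805 and 1321 CPM after injury. The low sums of 923 and 805 CPM were 0.58 and 0.51 times the mean of the other 2 libraries of their groups. Fibroblast markers summed in the same libraries to 0.94 and 0.74 times that mean, Schwann cell markers to 0.79 and 0.76 times, and satellite glia markers to 1.08 and 1.49 times. The basement membrane sum was steadier, at 328 to 416, 333 to 421, 368 to 390 and 361 to 440 CPM in Female sham, Female SNI, Male sham and Male SNI, with ratios of 0.90 and 0.95 in those 2 libraries. Their part in the fibrillar values was not tested. Across surgery, 8 of 10 macrophage markers rose, from sums of 118 to 164 CPM in Female sham to 285 to 358 CPM in Female SNI and from 109 to 143 CPM in Male sham to 251 to 401 CPM in Male SNI. Of 10 sensory neuron markers, 3 fell by edgeR (Nefh, Rbfox3 and Isl1), and DESeq2 and limma called 5 and 6 as lower, with 1, Tubb3, called as higher by limma. The neuronal sums were 20646 to 25381 CPM in Female sham, 17570 to 18317 CPM in Female SNI, 20765 to 22786 CPM in Male sham and 18213 to 24690 CPM in Male SNI. Of 10 fibroblast markers, edgeR and DESeq2 called 1 as higher, Ly6a, and limma called 2, Ly6a and Lum. Without Male SNI replicate 2 and Female sham replicate 2, edgeR called the same 2. At an unadjusted p under 0.05, edgeR had 4 of the 10, none below 0, against 18.4% of all genes. The median log2 change of the 10 was 0.23. Fibroblast sums were 976 to 1234 CPM in Female sham, 1293 to 1484 CPM in Female SNI, 998 to 1328 CPM in Male sham and 915 to 1355 CPM in Male SNI. No gene of these 3 lists was at 0 in all libraries, and the part of these lists in the values of Col5a3 and Col16a1 was not tested. Skeletal muscle markers summed to 1455 CPM in Male SNI replicate 1 and at most 67.6 CPM in the other libraries. Their median log2 change was 2.73, and all 8 had an unadjusted p under 0.05 by edgeR. At the adjusted threshold edgeR and limma called 0 of them and DESeq2 called 2. Without Male SNI replicate 2 and Female sham replicate 2, edgeR called 7 as higher, among 12.1% of all genes. Without Male SNI replicate 1 the called members were Col5a3 and Col16a1. The part of muscle in their values was not tested.

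Ratios of 2 chains within a library need no scaling between libraries. They were compared across libraries only and not read as proportions of the chains. The pairs were chains that combine in 1 trimer, or alternative chains of 1 kind (Lama2 and Lama4, Lamb2 and Lamb1, Lama5 and Lama4), and 8 of 9 had enough counts. The test was an exact two-sided permutation test over the libraries with labels exchanged within each sex (400 arrangements, smallest possible p = 0.005) and adjustment over the 8 pairs. No pair passed. Lama2 to Lama4 came nearest, with 0.335 to 0.577 after sham surgery and 0.230 to 0.460 after injury, a log2 difference of -0.44 (exact permutation p = 0.0450, adjusted p = 0.360). Col1a1 to Col1a2, which combine as 2 alpha 1 chains with 1 alpha 2 chain in type I collagen, was at 0.146 to 0.263 after sham surgery and 0.201 to 0.436 after injury. The log2 difference was 0.34 (exact permutation p = 0.135, adjusted p = 0.493), and the value of 0.436 was that of Male SNI replicate 2. Col6a1 to Col6a3 was at 0.562 to 1.41 in 10 libraries and at 3.34 and 2.45 in Male SNI replicate 2 and Female sham replicate 2.

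Females and males were then compared. In females alone, edgeR called no member (2.89% of all genes), and 5 members had an unadjusted p under 0.05 (15.2% of all genes). DESeq2 called none (5.17% of all genes), and limma with sample weights called 1, Col5a3 (10.4% of all genes). Without Male SNI replicate 2, edgeR called 2 in females, Col5a3 and Col6a3 (7.66% of all genes). In males alone, edgeR called no member (2.13% of all genes), and 4 members had an unadjusted p under 0.05 (14.5% of all genes). Limma called none (4.61% of all genes), and DESeq2 called 1, Col16a1 (4.43% of all genes). Without Male SNI replicate 3, edgeR called 1 in males, Col5a3 (3.91% of all genes). The test of the difference itself, the interaction of sex and injury, called no member by edgeR, DESeq2 or limma (0.0% of all genes by each). In that edgeR test, none of 49 members had an unadjusted p under 0.05 against 7.32% of all genes, none of which was called. For Col5a3 the interaction was -0.02 ± 0.26 (95% interval -0.57 to 0.54), and for Col16a1 it was 0.21 ± 0.25 (95% interval -0.31 to 0.74). Without Male SNI replicate 2 and Female sham replicate 2 it was -0.30 for Col5a3 and 0.01 for Col16a1 (edgeR unadjusted p = 0.144 and 0.959). In sham animals, no member was called between males and females by edgeR, DESeq2 or limma (0.0399%, 0.0799% and 0.0599% of all genes). None had an unadjusted p under 0.05 by edgeR, against 4.58% of all genes.

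The type VI chains are given by sex because of a pattern chosen after its values were seen. All 5 tested type VI genes had a change above 0 in females and below 0 in males, and this did not hold without Male SNI replicate 2 and Female sham replicate 2. Col6a1 was then at -0.17 in females, and Col6a2, Col6a3 and Col6a5 were at 0.05, 0.05 and 0.06 in males. Col6a3 had 1.10 ± 0.50 in females and -0.41 ± 0.50 in males, an interaction of -1.51 ± 0.71 (edgeR unadjusted p = 0.0511, adjusted p = 0.647). Each sex's Col6a3 value includes a library that stands apart, as Female sham replicate 2 and Male SNI replicate 2 were the lowest of their groups. Without both, Col6a3 had 0.73 in females (edgeR unadjusted p = 0.00354, adjusted p = 0.0530). The interaction was then -0.68 (edgeR unadjusted p = 0.0394, adjusted p = 0.907).

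The genes that act on collagens and laminins were read from 7 lists. Of 123 genes tested, edgeR called 13 as higher (10.6%) and none as lower, against 6.52% of all genes called. At an unadjusted p under 0.05, 23 genes passed (18.7%), 3 of them below 0, against 18.4% of all genes. DESeq2 and limma called 1 and 2 genes as lower, where they called 9.22% and 13.4% of all genes in either direction. Without Male SNI replicate 2 and Female sham replicate 2, the total called was 20, 1 of them as lower, among 12.1% of all genes. Without Male SNI replicate 2 alone the total in either direction was 21, among 11.5% of all genes. Receptors had the most called genes, 5 of 19, with a median log2 change of 0.22. Itga7, the alpha 7 integrin subunit that binds laminin, rose by 1.33 ± 0.08 on the log2 scale (edgeR adjusted p = 1.84e-07). It measured 210, 176 and 177 CPM in Female sham and 434, 468 and 471 CPM in Female SNI. Males had 145, 165 and 159 CPM after sham surgery and 420, 392 and 411 CPM after injury, with no overlap. Its partner Itgb1, the beta 1 subunit shared by the collagen- and laminin-binding integrins, rose by 0.51 ± 0.10. Ddr2, a receptor kinase for fibrillar collagen, rose by 0.54 ± 0.11. Bcam, a laminin alpha 5 receptor, rose by 0.47 ± 0.12, and Sdc1, a heparan sulfate proteoglycan, rose by 1.29 ± 0.20.

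Enzymes that cut matrix and their inhibitors had 3 called genes of 19 and a median of 0.26. Mmp16, a membrane-bound metalloproteinase, rose by 1.71 ± 0.13 (edgeR adjusted p = 2.18e-06), from 15.2 to 24.5 CPM in sham libraries to 47.8 to 72.5 CPM in injured ones. Timp1, an inhibitor of metalloproteinases, rose by 1.48 ± 0.22. The list thus held both a called protease and a called inhibitor of proteases. Timp2, another such inhibitor at a mean of 3294 CPM, had -0.22 ± 0.17 (edgeR adjusted p = 0.560). It was called as lower by limma, at -0.39 (adjusted p = 0.00534). Without Male SNI replicate 2 and Female sham replicate 2 it was called at -0.40 (edgeR adjusted p = 0.00107). These 2 analyses each called 5 of the 19 as higher, and 2 and 1 as lower (13.4% and 12.1% of all genes).

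Enzymes that fold and modify collagen had 1 called gene of 20 and a median of 0.06. This was Plod3, a lysyl hydroxylase and glycosyltransferase, which rose by 0.52 ± 0.11 (edgeR adjusted p = 0.0107). DESeq2 called 1 of the 20 and limma 2, all as higher. Without Male SNI replicate 2 and Female sham replicate 2, edgeR called 3, all as higher, among 12.1% of all genes. Beside Plod3 these were Mia3 at 0.26 and Serpinh1 at 0.42, and limma's second gene was Mia3. Processing and cross-linking enzymes had 2 of 13 called and a median of 0.002. Loxl2, which cross-links type IV collagen, rose by 1.07 ± 0.20 from 3.56 to 9.88 CPM in sham libraries to 10.2 to 17.1 CPM in injured ones, and Tgm2, a transglutaminase, rose by 1.003 ± 0.19. TGF-beta signalling to matrix had 2 of 15 called and a median of 0.17: Tgfbr2, the type II receptor, rose by 0.79 ± 0.22, and Tgfbi, a secreted target of the pathway that binds collagen, rose by 0.40 ± 0.11. The structural neighbours had none called by edgeR over the 12 libraries. This held for 17 other basement membrane proteins such as nidogens, perlecan and agrin (median 0.04; smallest adjusted p by edgeR 0.274, for Smoc1) and for 20 interstitial matrix proteins such as fibronectin, decorin and periostin (median 0.05; smallest adjusted p by edgeR 0.220, for Lum). At an unadjusted p under 0.05, edgeR had 0 of the 17 and 1 of the 20, against 18.4% of all genes. DESeq2 called none and limma called 0 and 1 (9.22% and 13.4% of all genes). After leaving out Male SNI replicate 2 and Female sham replicate 2, edgeR called 0 of the 17 and 2 of the 20 as higher, Lum at 0.41 and Spp1 at 0.38 (edgeR adjusted p = 0.0313 and 0.0460), among 12.1% of all genes.

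**Figure D4:**
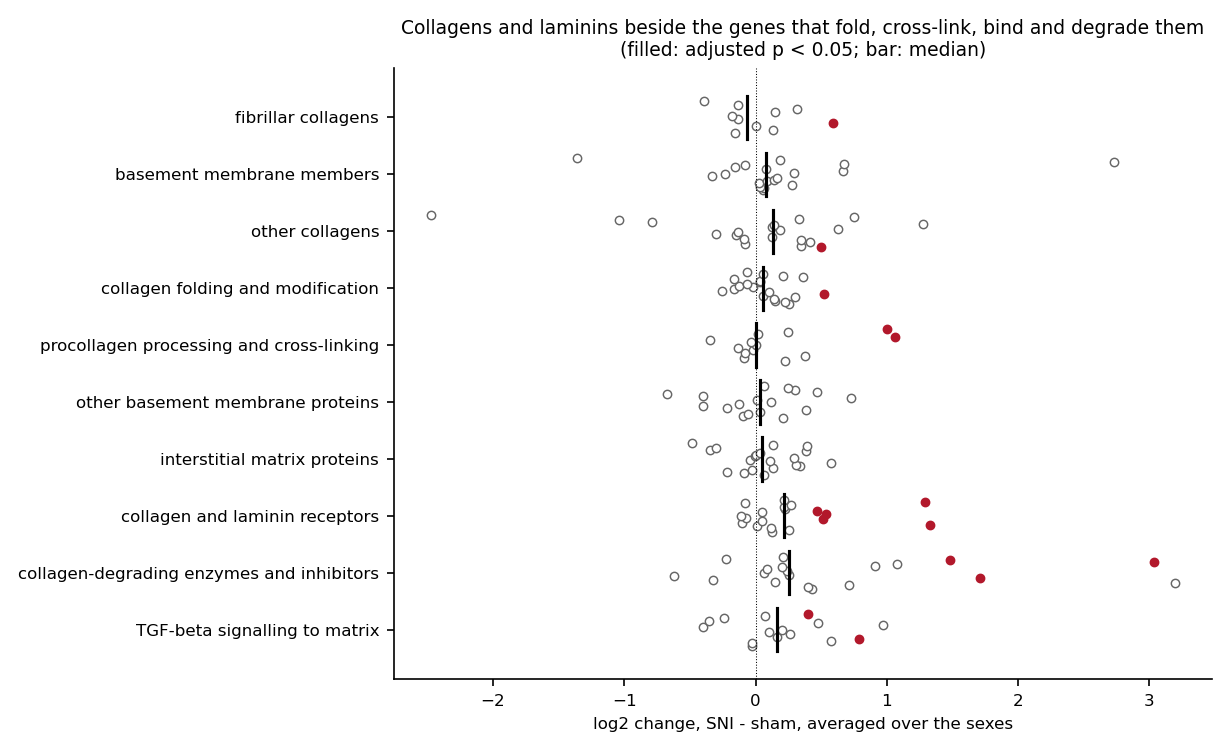
Log2 change after sciatic nerve injury, averaged over the sexes, for the tested collagen and laminin genes (upper 3 lines) and the tested genes of 7 lists that act on or lie beside them; each point is a gene, filled where called, and each bar is a list's median. Every called gene lies above 0, the receptor list has the most with 5, and the basement membrane members and the lists of other basement membrane and interstitial matrix proteins have none.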

How the data were processed

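Whole-ganglion RNA was sequenced from 12 libraries (QuantSeq 3′ kit, per the labels' protocols). The deposited tables give raw counts per gene symbol, per the file values. Bowtie2, bedtools and the build mm10 are named in the submitters' processing notes, without role or version; the sources used here do not say how strand and reads that map to several genes were treated. From these, 44 extra rows of 35 symbols listed more than once were summed. Genes were kept by edgeR's filterByExpr (minimum count 10), leaving 15036. Counts were scaled by TMM and tested with edgeR 4.0.16 (quasi-likelihood, 1 coefficient per group over 12 libraries; R 4.3.3), with Benjamini-Hochberg adjustment over all genes tested and a threshold of 0.05. DESeq2 1.42.0 and limma 3.58.1 were alternatives, with other scalings, filters, a replicate block and left-out libraries. Standard errors come from the F statistic. Levels are CPM on TMM-scaled totals. With a 3′ kit a level is not divided by length; genes were ranked as abundant on this scale only, and ratios of chains were compared between libraries only. The scripts were tested on simulated counts. The members, gene lists and named genes (called members, the 3 most abundant and the 2 most extreme of each group, and called genes of each list) were chosen with earlier results of these data known. Values of 1 member and of 1 gene of the lists are not reported here.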

Additional observations from a re-analysis of the deposited data

How the results depend on the processing

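The count of called members for injury against sham averaged over the sexes was 2 in the main analysis, 1 to 3 as single libraries were left out, 2 under other scalings, DESeq2, other filters and without Rn45s, and 3 with limma's sample weights and without both libraries named next. The count over all genes, 980, was 626 to 1766 as single libraries were left out, 2008 with limma's sample weights and 1848 without both Male SNI replicate 2 and Female sham replicate 2. The count of 13 called genes in the matrix pathway lists was 10 to 21 as single libraries were left out, with 21 without Male SNI replicate 2, and was 20 without both libraries. In females, the member count of 0 became 1 with limma's sample weights (10.4% of all genes), 1 with only female libraries (6.30%) and 1 without both libraries (6.45%). The female count was 0 to 2 as single libraries were left out (1.01% to 7.66% of all genes). In males, the member count became 1 with DESeq2 (4.43% of all genes). It was 0 to 1 as single libraries were left out, being 1 without Male SNI replicate 3 (3.91% of all genes). The cause was not tested. No member's change that was called in the main analysis took the other sign. Scaling by library totals alone gave 535 genes higher and 533 lower in place of 569 and 411. Same-numbered libraries of different groups did not all deviate together, with correlations of -0.0906 to 0.425. The highest was that of Female sham replicate 2 with Male SNI replicate 2. The labels do not say what a replicate number shares, and these correlations cannot decide whether the numbers pair libraries. With the replicate block 936 genes and 2 members were called. Depth limits the 21 tested members below 5 CPM, whose standard errors reach 1.705 on the log2 scale.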
